A study of Rattus norvegicus with 6 samples.

Results

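A set of 10 genes of the integrated stress response and of stress hormone signalling were followed in rat hearts: the transcription factor genes Atf4, Atf5, Ddit3 and Atf3, the ATF4 target genes Trib3, Asns, Psat1 and Chac1, and the genes of the secreted hormones FGF21 and GDF15. They were chosen by symbol from a table of 17487 symbols, and all 10 were found. The study sequenced mRNA libraries from heart tissue of 6 adult male Wistar rats, an outbred laboratory strain, with 1 library per animal. Rats of the doxorubicin group (n = 3) had received 3.75 mg/kg of doxorubicin hydrochloride, an anthracycline cancer drug, by tail vein once a week over 4 weeks. Rats of the control group (n = 3) had received 0.9% sodium chloride in the same way. The labels name no genetic change in either group, and the part of the heart, the exact age of the rats and the interval after the last dose are not given in the sources used here.

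In the integrated stress response, any of several kinases (HRI, PKR, PERK and GCN2) phosphorylates the initiation factor eIF2, which slows most protein synthesis while the mRNA of ATF4 is translated more. ATF4 then switches on genes for amino acid synthesis and uptake, and with prolonged stress it also induces CHOP, the product of Ddit3. In heart and skeletal muscle the response is known to follow damage to mitochondria, and FGF21 and GDF15, which muscle can release under such stress, are often called mitokines. Because ATF4 is controlled largely at translation, its mRNA level is not a direct measure of its activity.

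Libraries held 2219685 to 3508282 counts. The smallest level called detectable, 3 counts, therefore lay between 0.855 and 1.35 counts per 1000000 (CPM) of these unscaled totals. All other levels are given as CPM scaled by edgeR's trimmed mean of M-values (TMM), so the floor in CPM is only approximate on that scale. Ventricular cardiomyocyte markers were abundant in every library, with a summed level of 112804 to 134792 CPM over the 9 of 10 listed genes found. Atrial markers varied between libraries, and no single library was highest for all of them. The atrial light chain genes Myl7 and Myl4 were highest in control library 1, at 429 and 179 counts against 7 to 20 and 17 to 81 in the other 5 libraries. Sln was counted 60 times in control heart 1, 59 times in control heart 3 and 0 to 6 times elsewhere. The sum of the atrial markers, mostly Nppa, was 700, 389 and 187 CPM in control and 3286, 287 and 918 CPM in doxorubicin libraries. Some genes that most cells use (Xbp1, Eif2s3, Jund and Cebpb) were listed at 0 in all 6 libraries, so a low count in this table cannot be equated with a low RNA level.

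At the depth of these libraries the 10 genes had no common direction: without a filter on low counts, 7 had a positive and 3 a negative log2 fold change. The signs of Psat1, Chac1, Ddit3, Atf4 and Atf5 in this tally each turned on leaving out a single library. In the widest such turns of the low-count genes, Psat1 went from 0.16 to -0.94 without doxorubicin library 1, and without control library 2 Chac1 went from -0.28 to 3.51, with the remaining control libraries at 0, and Ddit3 from -0.12 to 0.75. The Atf4 means were 278 and 279 CPM, Atf5 and Ddit3 overlapped between the groups, and 3 of the 10 genes (Atf3, Asns and Gdf15) were higher in all 3 doxorubicin hearts than in any control heart. Such a pattern held for 5.87% of the 13050 symbols with at least 1 count, and for 4.63% of the 3845 such symbols below the low-count filter. No gene of the 10 was lower in all 3 doxorubicin hearts, against 5.94% of the symbols with at least 1 count. The filter on low counts left 4 of the 10 for the main test, edgeR's quasi-likelihood test, and 0 of these passed an adjusted p of 0.05, where 0.0543% of all 9205 tested symbols passed. None of the 4 had an unadjusted p under 0.05 either, against 8.10% of all tested symbols. Trib3 passed the filter only through its doxorubicin libraries, so the direction of the tested genes is in part set by the filter. Without the filter, edgeR tested all 10: 0 passed the adjusted threshold, against 0.467% of 13050 symbols, and Gdf15 and Fgf21 had an unadjusted p under 0.05, against 7.49%. DESeq2 passed 0 of those it gave an adjusted p, against 0.567% of the symbols it tested, and gave 1, Gdf15, an unadjusted p under 0.05, against 5.54%. Limma voom gave 0 for both counts on the 4 filtered genes.

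**Figure D1:**
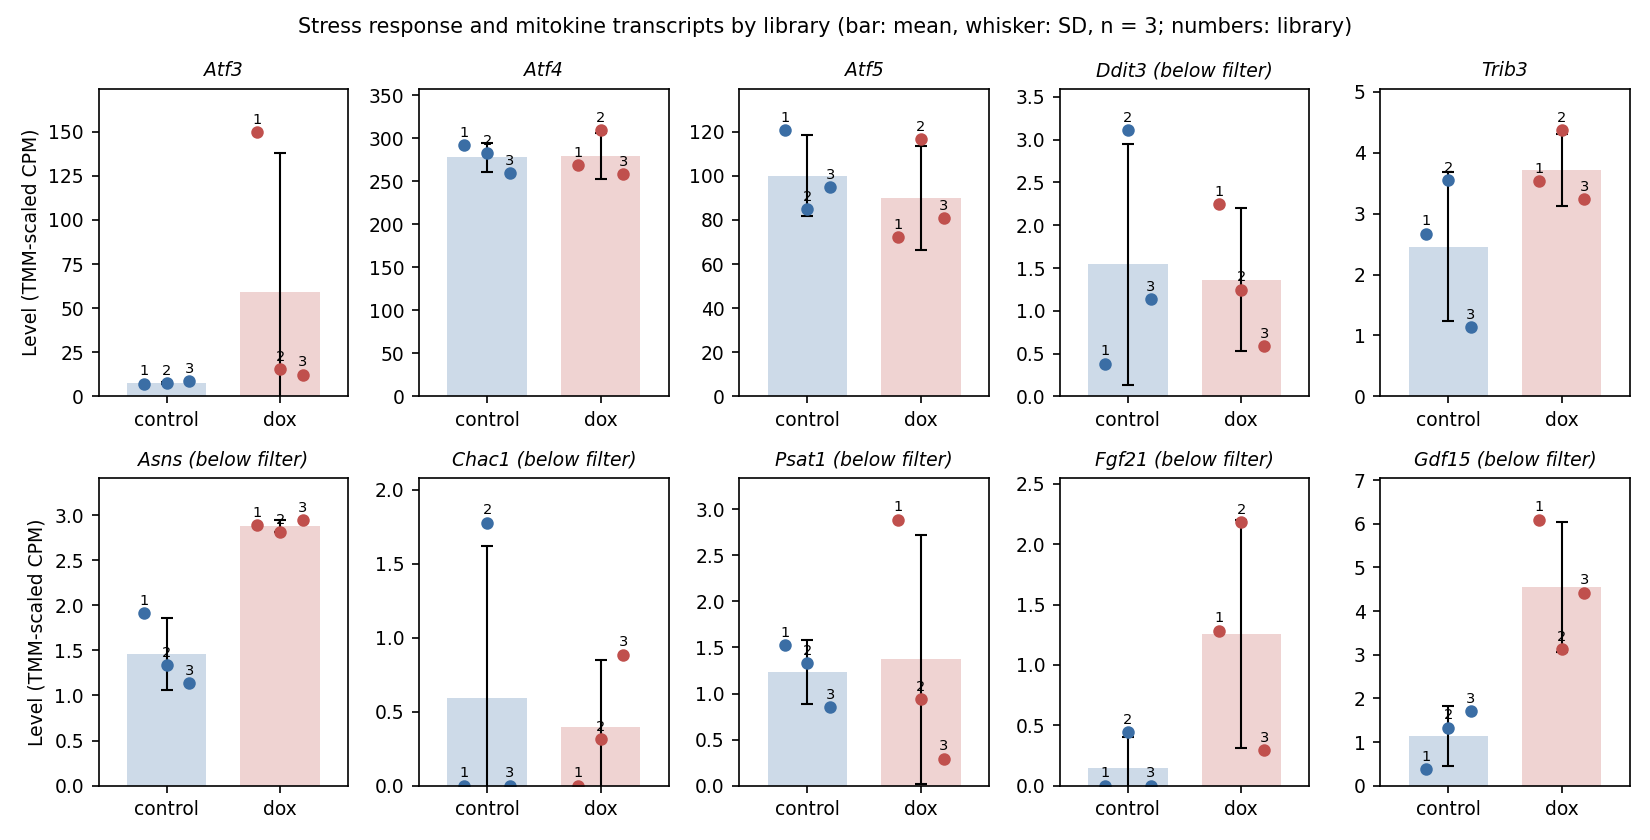
Level of each of the 10 transcripts in every library, in TMM-scaled CPM on axes that start at 0, for 3 control and 3 doxorubicin hearts; bars are means, whiskers are the SD, and the small numbers name the library. Doxorubicin library 1 lies far above all others for Atf3, at 150 CPM, while the Asns and Gdf15 values separate by group at a few CPM and Atf4 does not.

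Atf4 encodes the central activator of the response. Its mRNA was counted 765, 636 and 914 times in the 3 control hearts, and 838, 992 and 878 times in the 3 doxorubicin hearts, given here and below in the order of the library numbers. Scaled for depth, the control hearts lay between 260 and 292 CPM and the doxorubicin hearts between 259 and 310 CPM, so the groups overlapped fully. The means were 278 ± 16.7 and 279 ± 26.8 CPM (SD, n = 3). The log2 fold change was 0.01 (SE 0.17), with a 95% interval of -0.36 to 0.38 and an edgeR adjusted p of 0.995. A true difference within this interval cannot be told from 0 here. The interval is not adjusted for the number of symbols tested and is no limit of detection.

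Atf5, a related factor that is also translated when eIF2 is phosphorylated and that is linked to the mitochondrial unfolded protein response, had 316, 191 and 334 counts in control and 225, 374 and 274 counts in doxorubicin libraries. Doxorubicin hearts 1 and 3 were below every control heart, at 72.2 and 80.8 CPM, while doxorubicin library 2 reached 117 CPM, near the highest control value of 121 CPM. The log2 fold change was -0.16 (SE 0.22), with a 95% interval of -0.62 to 0.31 and an edgeR adjusted p of 0.890. The span of Atf5 overlaps that of Nup62 in the RefSeq annotation, and overlap of their exons was not checked. Counting mode and use of strand are not given in the sources used here. Reads of the 2 genes may therefore be mixed or dropped.

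Ddit3, which encodes CHOP, a factor tied to cell death under lasting stress, was close to the limit of detection. It had 1, 7 and 4 counts in control and 7, 4 and 2 counts in doxorubicin libraries. The highest and the lowest value were both in control hearts. Pooled over each group, 13 counts stood against 12, a depth-scaled ratio of 0.936 with a 95% exact interval for counting error of 0.394 to 2.24. Ddit3 stood on 2 rows of the table, the second of them at 0, and it overlaps Mars1 in the RefSeq annotation, so its low count is uncertain as a level.

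Atf3, a repressing family member that is induced by ATF4 and by many other stress signals, had the widest spread. The control hearts gave 19, 17 and 30 counts, and the doxorubicin hearts gave 467, 50 and 42. In CPM the control hearts lay within 7.26 to 8.52, while the doxorubicin hearts were at 150, 15.6 and 12.4. All doxorubicin hearts were above all control hearts, and the first of them was far above the others. The log2 fold change was 2.91 (SE 1.26), with an edgeR adjusted p of 0.639 and a 2-sided exact permutation p of 0.1, the smallest that 3 against 3 libraries can give. Without doxorubicin library 1 the log2 fold change of Atf3 was 0.84 (SE 0.35), with an edgeR adjusted p of 0.715, so most of the size rested on that library. DESeq2 gave Atf3 no p-value.

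Some immediate early genes, which respond fast to stimulation, were also high in doxorubicin library 1. The nuclear receptor genes Nr4a1 and Nr4a3 had 462 and 127 counts there, against 49 to 119 and 3 to 27 counts in the other 5 libraries. Fos had 9 counts in that heart, within its control range of 3 to 30, and Junb had 66.4 CPM, within its control range of 52.0 to 85.9 CPM. Egr1 had 13.2 CPM there, slightly above its control range of 6.66 to 12.2 CPM. Over the list of 16 tested immediate early genes, 10 had a positive log2 fold change, 0 passed the adjusted threshold in edgeR, and 2 had an unadjusted p under 0.05: Btg2 at 0.56 (SE 0.23) and Dusp1 at -0.56 (SE 0.26). Of all tested symbols, 0.0543% passed the adjusted threshold and 8.10% had an unadjusted p under 0.05. Ier3 was at 0.47 (SE 0.23). The natriuretic peptide gene Nppa, a marker of cardiac strain and of atrial tissue, was also highest in doxorubicin library 1, at 3252 CPM against 161 to 902 CPM elsewhere. Of the other atrial markers, Myl4 was at 26.0 CPM and Myl7 at 6.42 CPM in that library, for each gene the highest value outside control library 1, while Sln was at 1.93 CPM, below control libraries 1 and 3. Nr4a1, Nr4a3, Fos, Egr1, Junb and Nppa were picked after their values were seen. Hemoglobin and other blood markers were lowest in the same library, summing to 694 CPM against 2023 to 7367 CPM in the others. The part of atrial tissue and of blood in the Atf3 value was not tested.

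**Figure D2:**
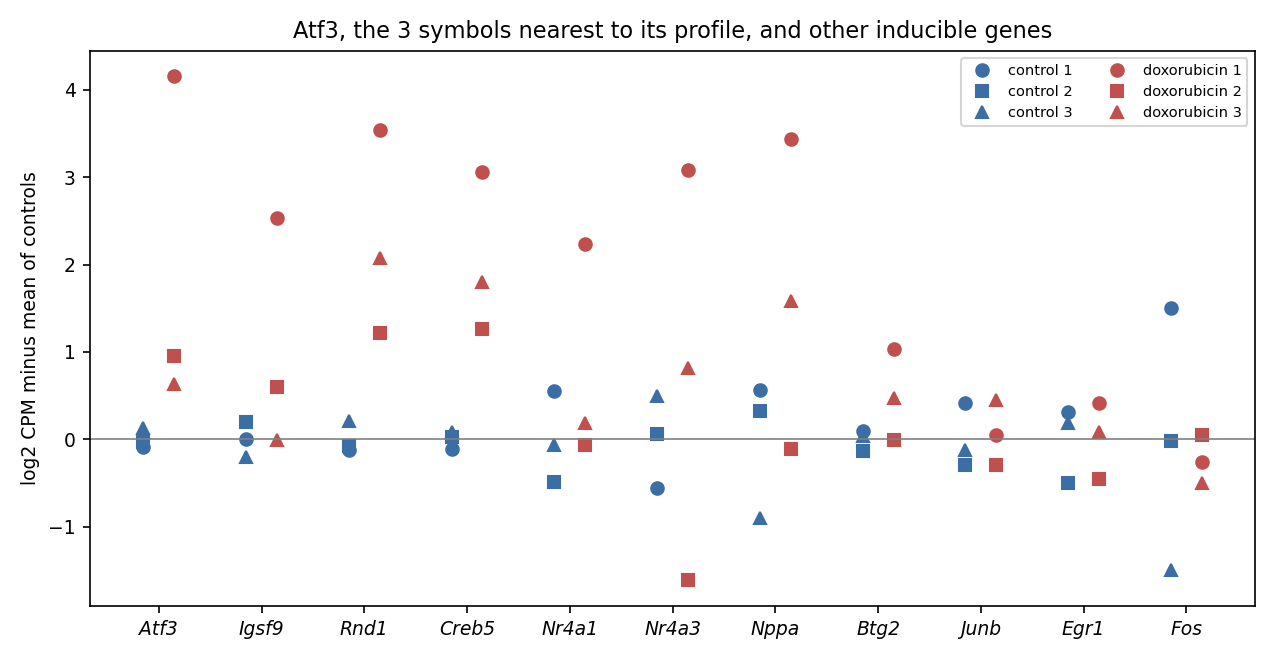
Log2 CPM of Atf3, the 3 symbols nearest to its profile and 7 other genes in each library, minus the mean of the control libraries, with colours for group and marker shapes for library 1, 2 and 3. Doxorubicin library 1 is the highest point for Atf3, Rnd1, Creb5, Igsf9, Nr4a1, Nr4a3, Nppa and Btg2, and by a small margin for Egr1, and lies among the other points for Junb and Fos.

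Among the ATF4 targets, Trib3 encodes a pseudokinase that feeds back on ATF4 and on insulin signalling. It had 7, 8 and 4 counts in control and 11, 14 and 11 counts in doxorubicin libraries. Control library 2, at 3.55 CPM, was above 2 of the doxorubicin hearts, so the groups overlapped. The log2 fold change of Trib3 was 0.66 (SE 0.52), with a 95% interval of -0.47 to 1.78 and an edgeR adjusted p of 0.784.

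Asns encodes asparagine synthetase, a classical target through which ATF4 was linked to amino acid shortage. Its counts were 5, 3 and 4 in control and 9, 9 and 10 in doxorubicin libraries. The doxorubicin hearts were close together, at 2.81 to 2.95 CPM, and above the control hearts, at 1.14 to 1.91 CPM. The pooled ratio was 2.02, with a 95% exact interval for counting error of 0.993 to 4.35, and the exact permutation p was 0.1. In the edgeR fit without the filter, Asns was at 0.98 (SE 0.68) on the log2 scale, adjusted p 0.802. The separation rests on 12 reads in control and 28 in doxorubicin hearts.

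Psat1, an enzyme of serine synthesis, had 4, 3 and 3 counts in control and 9, 3 and 1 counts in doxorubicin libraries. Both the highest and the lowest value were in doxorubicin hearts, and the pooled ratio was 1.12 (95% exact interval for counting error 0.455 to 2.86). Chac1, which degrades glutathione and is among the genes most strongly induced by ATF4 in cultured cells, was at 0, 4 and 0 counts in control and at 0, 1 and 3 counts in doxorubicin libraries. No difference in Chac1 was detectable at this depth. When Ddit3, Trib3, Asns, Chac1 and Psat1 were summed, the control libraries had 17, 25 and 15 counts and the doxorubicin libraries 36, 31 and 27 counts. In CPM the sums were 6.49, 11.1 and 4.26 against 11.6, 9.67 and 7.96, so that control library 2 lay above 2 doxorubicin hearts.

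The stretches of promoter around a match to the C/EBP-ATF response element are shown because this is the element through which ATF4 is known to act on such genes. In RefSeq promoter windows (build GRCr8, 250 bases before to 50 bases after the start), 9 of the 10 genes had a window. The core TGATGNAA, searched on both strands, was found in 3 of these 9 genes and in 3.98% of all 33469 windows of the same length. The cyclic AMP response element TGACGTCA, also searched on both strands, was in 0 of the 9 genes and in 1.83% of all windows. In each of the 3 genes the core read on the strand opposite to the gene. The sequences are given 5′ to 3′ on the gene's strand, with the 8 matching bases, the reverse complement of the core, in capitals.
Trib3, chr3:161275517-161275584, minus strand, match ending 14 bases before the start: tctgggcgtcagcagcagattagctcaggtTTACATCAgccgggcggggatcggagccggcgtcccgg
Chac1, chr3:126795934-126796001, plus strand, match ending 160 bases before the start: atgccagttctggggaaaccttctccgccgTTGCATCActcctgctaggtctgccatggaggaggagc
Fgf21, chr1:105221482-105221549, minus strand, match ending 136 bases before the start: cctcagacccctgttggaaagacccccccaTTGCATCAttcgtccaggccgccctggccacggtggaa
A match is a description of the letters and not evidence that a factor binds there in the heart. Chac1 and Fgf21 carry the same 8 bases, and their pooled counts in control and doxorubicin hearts were 4 and 4 for Chac1 and 1 and 12 for Fgf21.

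Of the 2 mitokines, Gdf15, a member of the TGF-beta superfamily that acts on the brainstem to lower appetite, was counted 1, 3 and 6 times in the control hearts and 19, 10 and 15 times in the doxorubicin hearts. The control hearts lay at 0.382 to 1.70 CPM and the doxorubicin hearts at 3.12 to 6.10 CPM, with no overlap. The means were 1.14 ± 0.682 and 4.55 ± 1.49 CPM (SD, n = 3), and the pooled ratio was 3.80 with a 95% exact interval for counting error of 1.88 to 8.47. The exact permutation p was 0.1, the smallest possible. The filter removed Gdf15. In the edgeR fit without it, the log2 difference was 1.92 (SE 0.65), adjusted p 0.278 over all symbols. The groups were separate, and the difference did not pass the adjusted threshold.

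The summed level of 12 macrophage markers was also higher in the doxorubicin hearts, at 510, 716 and 535 CPM against 476, 434 and 468 CPM in control. The sums separated only with Lyz2 included, which was at 126, 225 and 164 CPM against 116, 87.5 and 88.3 CPM in control. Of the 11 tested, 9 had a positive log2 fold change and 3 had an unadjusted p under 0.05 (Lyz2 at 0.82, Cd163 at 1.15 and Mrc1 at 0.82), where 8.10% of all tested symbols had one, and none of the 12 markers was at 0 in all libraries. Only Lyz2 and Mrc1 were higher in all doxorubicin hearts. The groups overlapped for the other markers, and Adgre1 was at -0.15 and Lgmn at -0.03. Gdf15 was highest in doxorubicin library 1 and the macrophage sum in doxorubicin library 2, and the part of these cells in the Gdf15 level was not tested. In tissue RNA, more cells of a type and more RNA per cell cannot be told apart. GDF15 is also known as a target of p53: of 12 tested p53 target genes, 7 had a positive log2 fold change, the median was 0.00 against 0.02 for all tested symbols, and 0 passed the adjusted threshold in edgeR. Those with an unadjusted p under 0.05 were Perp at 0.64 (SE 0.18) and Aen at 1.05 (SE 0.37), which were higher in all doxorubicin hearts, and Cdkn1a at -0.37 (SE 0.17), which was lower in all of them. Beside these 3 of 12, 8.10% of all tested symbols had such a p, and of the symbols with at least 1 count 5.87% were higher and 5.94% lower in all doxorubicin hearts.

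Fgf21, an endocrine growth factor made mainly by liver and induced in stressed muscle, was at the limit of detection. It had 0, 1 and 0 counts in control and 4, 7 and 1 counts in doxorubicin libraries. Doxorubicin library 3, at 0.295 CPM, lay below control library 2, at 0.444 CPM, and no control library reached the floor of 3 counts. Pooled, 12 counts stood against 1, a ratio of 10.4 with a 95% exact interval for counting error of 1.53 to 443. Without the filter edgeR gave Fgf21 an adjusted p of 0.581, and the exact permutation p was 0.2. Leaving out 1 library moved the fitted log2 difference of Fgf21 from 2.98 without the filter to between 2.33, without doxorubicin library 2, and 5.03, without control library 2. In the latter fit every control library was at 0, so that value depends on the prior count and is no bound. The 5 hepatocyte markers summed to 40.5, 37.8 and 36.6 CPM in control and 29.5, 41.2 and 28.3 CPM in doxorubicin libraries, nearly all of it Ttr. The sum was highest in doxorubicin library 2, as was Fgf21. Alb, Apoa1, Serpina1 and Fgb had 0 to 7 counts in each library, and the part of liver RNA in the Fgf21 counts was not tested.

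**Figure D3:**
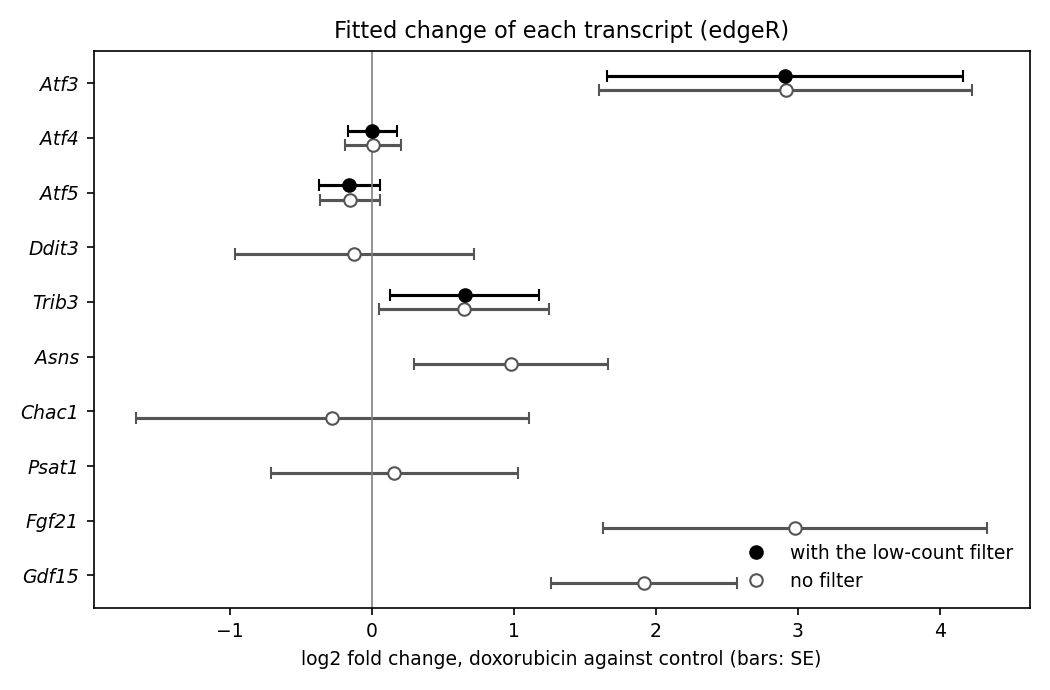
Log2 fold change of doxorubicin against control for each of the 10 transcripts, with SE as bars; filled points are from the fit with the low-count filter (4 genes) and open points from the fit without it (10 genes). Atf4 and Atf5 sit near 0 with narrow bars, Atf3, Fgf21 and Gdf15 lie furthest to the right, and the bars of the low-count genes are wide.

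The doxorubicin hearts differed in which of the 10 genes was highest. Doxorubicin library 1 had the highest doxorubicin value for 4 genes (Atf3, Ddit3, Psat1 and Gdf15), doxorubicin library 2 for 4 (Atf4, Atf5, Trib3 and Fgf21) and doxorubicin library 3 for 2 (Asns and Chac1). No doxorubicin heart was therefore highest throughout, and the heart with the largest Atf3 value had the lowest Atf5 value of all 6 libraries. Several of these ranks rest on few counts in doxorubicin libraries: 9, 9 and 10 for Asns, 0, 1 and 3 for Chac1, 7, 4 and 2 for Ddit3 and 9, 3 and 1 for Psat1. Such ranks do not show that the hearts differ.

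Likeness of profiles was measured as the root mean square difference of log2 CPM, each centred on its mean over the 6 libraries, so a smaller value means a closer profile. The symbols nearest to Atf3 were Igsf9 (0.61), Rnd1 (0.62) and Creb5 (0.67). Rnd1 had 18, 16 and 31 counts in control and 296, 59 and 115 in doxorubicin libraries, at 2.67 (SE 0.55) on the log2 scale; its edgeR adjusted p was 0.157. Creb5, another bZIP factor gene, had 3, 3 and 5 counts in control and 49, 13 and 21 in doxorubicin libraries. Both separated the groups and both were highest in doxorubicin library 1. Igsf9 was also highest there, at 34.0 CPM, but its groups overlapped, with doxorubicin library 3 at 5.31 CPM against 4.54 to 6.22 CPM in control. Because these symbols were picked for nearness to Atf3, the traits they share with it follow in part from the choice. Atf4 was nearest to Cdc42se1 (0.03), Atad3a (0.05) and Kdelr2 (0.05), with log2 fold changes of 0.00, 0.01 and -0.03. Atf5 was nearest to Dph2 (0.03), Syde1 (0.06) and Calr (0.07), and Trib3 to Clcn2 (0.12), Pdia5 (0.16) and Bcat1 (0.17). Every value compares 6 libraries that share the same depth scaling, and it is a description of these libraries.

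The other genes of the pathway were read from 10 lists holding 165 symbols found in the table, of which 139 were tested. None passed the adjusted threshold in edgeR, and 8 had an unadjusted p under 0.05, 6 higher and 2 lower in doxorubicin, which is 5.76% against the 8.10% of all tested symbols. Positive and negative log2 fold changes were about equal in number, at 71 and 68.

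Upstream, of the 18 tested genes of the eIF2 kinases and the eIF2 cycle 11 had a positive log2 fold change, with a median of 0.03 against 0.02 for all tested symbols. Eif2ak4, the gene of the amino acid sensor GCN2, had 9, 12 and 36 counts in control and 35, 38 and 32 in doxorubicin libraries. Its log2 fold change was 0.73 (SE 0.40). Control library 3, at 10.2 CPM, lay above doxorubicin library 3, at 9.43 CPM, so the groups overlapped. Impact, the gene of a GCN2 inhibitor, was at 0.48 (SE 0.31). Eif2ak1, the gene of HRI, which relays mitochondrial stress, was at 0.21 (SE 0.20) and higher in all doxorubicin hearts. The same held for 5.87% of the symbols with at least 1 count. Eif2ak3, the gene of PERK, was at 0.06 (SE 0.31). Dele1, whose product carries the mitochondrial signal to HRI, was at -0.28 (SE 0.19), and Ppp1r15a, the stress-induced eIF2 phosphatase subunit gene, at 0.13 (SE 0.20). The edgeR adjusted p was 0.677 for Eif2ak4 and higher for the other genes named here. Eif2ak1, Eif2ak3 and Ppp1r15a, and below Slc3a2, Phgdh, Psph, Mthfd2, Sesn2, Hspa5, Hspd1, Lonp1 and Gfral, were picked for their role after their values were seen.

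Downstream, the amino acid transporters had the highest median of the 10 lists, 0.35 over 9 tested genes, of which 6 were positive. Slc7a5, the gene of the large neutral amino acid transporter LAT1, had 11, 8 and 22 counts in control and 36, 29 and 41 in doxorubicin libraries. Slc7a1, the gene of a cationic amino acid transporter, had 25, 16 and 34 counts in control and 64, 47 and 41 in doxorubicin libraries. For both genes all doxorubicin hearts were above all control hearts in CPM, as held for 5.87% of the symbols with at least 1 count. The log2 fold changes were 1.19 (SE 0.37) for Slc7a5 and 0.83 (SE 0.32) for Slc7a1, with edgeR adjusted p-values of 0.360 and 0.498, and Slc43a2 was at 0.46 (SE 0.29). Slc3a2, whose product pairs with LAT1 at the membrane, was below the filter at 0, 1 and 0 counts in control and 2, 2 and 7 in doxorubicin libraries. The 3 negative genes were Slc38a2 at -0.09 (SE 0.20), Slc38a3 at -0.20 (SE 0.18) and Slc38a7 at -0.15 (SE 0.37). The summed level of the list overlapped between the groups. It was 507, 626 and 647 CPM in control and 578, 641 and 538 CPM in doxorubicin libraries.

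The enzymes of serine, glycine, proline and one-carbon metabolism had mostly negative values: 10 of 14 tested had a negative log2 fold change, with a median of -0.15 and 0 past the adjusted threshold or an unadjusted p of 0.05 in edgeR. The 3 smallest p-values belonged to Aldh18a1 at -0.42 (SE 0.31), Got1 at -0.23 (SE 0.18) and Mthfd2l at 0.46 (SE 0.42). Phgdh and Psph, which act before and after Psat1 in serine synthesis, were at -0.46 (SE 0.52) and -0.07 (SE 0.35), and Mthfd2, a mitochondrial folate enzyme often raised in mitochondrial disease, was at 0.14 (SE 0.40). The cytosolic aminoacyl-tRNA synthetases were split, 8 positive and 10 negative of 18 tested, with a median of -0.03. Iars1 at 0.44 (SE 0.23) and Mars1 at 0.30 (SE 0.19) were the 2 of them whose doxorubicin values all lay above control, and neither passed the threshold. Of the symbols with at least 1 count, 5.87% were higher in all doxorubicin hearts. Mars1 overlaps Ddit3 in the RefSeq annotation, so its count is uncertain as a level. Sars1 was at -0.20 (SE 0.17).

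Of the other ATF4-linked factors and feedback genes 9 of 16 were positive (median 0.08), and only Nfe2l2, the gene of the antioxidant regulator NRF2, had an unadjusted p under 0.05, at 0.46 (SE 0.21) with an edgeR adjusted p of 0.594. Atf2 was at 0.76 (SE 0.41), and its groups overlapped. It had 17, 23 and 25 counts in control and 21, 37 and 73 in doxorubicin libraries. Sesn2, a stress-induced inhibitor of mTORC1 signalling, was at 0.52 (SE 0.31) and higher in all doxorubicin hearts, and Ddit4, another such inhibitor, at -0.35 (SE 0.20). The chaperones of the endoplasmic reticulum were near the median of all genes (0.04, 11 of 19 positive). Hspa5, the gene of the chaperone BiP, was at 0.15 (SE 0.22), Sel1l at 0.31 (SE 0.24) and Pdia3 at 0.25 (SE 0.19). Atf6 was at 0.76 (SE 0.52), and its groups overlapped. It had 13, 13 and 29 counts in control and 14, 21 and 73 in doxorubicin libraries. The mitochondrial chaperones and proteases had a median of -0.07, with 11 of 14 negative. Trap1, a mitochondrial HSP90, was lower in all 3 doxorubicin hearts at -0.32 (SE 0.17), Spg7 was at -0.29 (SE 0.19) and Hspe1 at -0.24 (SE 0.20), and Hspd1 and Lonp1 were at -0.05 (SE 0.19) and 0.05 (SE 0.18). No gene of these last 2 lists had an unadjusted p under 0.05. Of the symbols with at least 1 count, 5.87% were higher and 5.94% lower in all doxorubicin hearts.

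Receptors of the mitokines were measured in part, and the listed gene Klb was not found. Fgfr1 was at 0.07 (SE 0.19), Fgfr3 was at 0.65 (SE 0.33), and Gfral, the receptor of GDF15 known from the brainstem, was listed at 0. Ret, the partner of GFRAL, had 16, 8 and 20 counts in control and 10, 10 and 5 in doxorubicin libraries. All doxorubicin hearts lay below all control hearts in CPM, as held for 5.94% of the symbols with at least 1 count. Its log2 fold change was -0.99 (SE 0.48), with an edgeR adjusted p of 0.621.

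**Figure D4:**
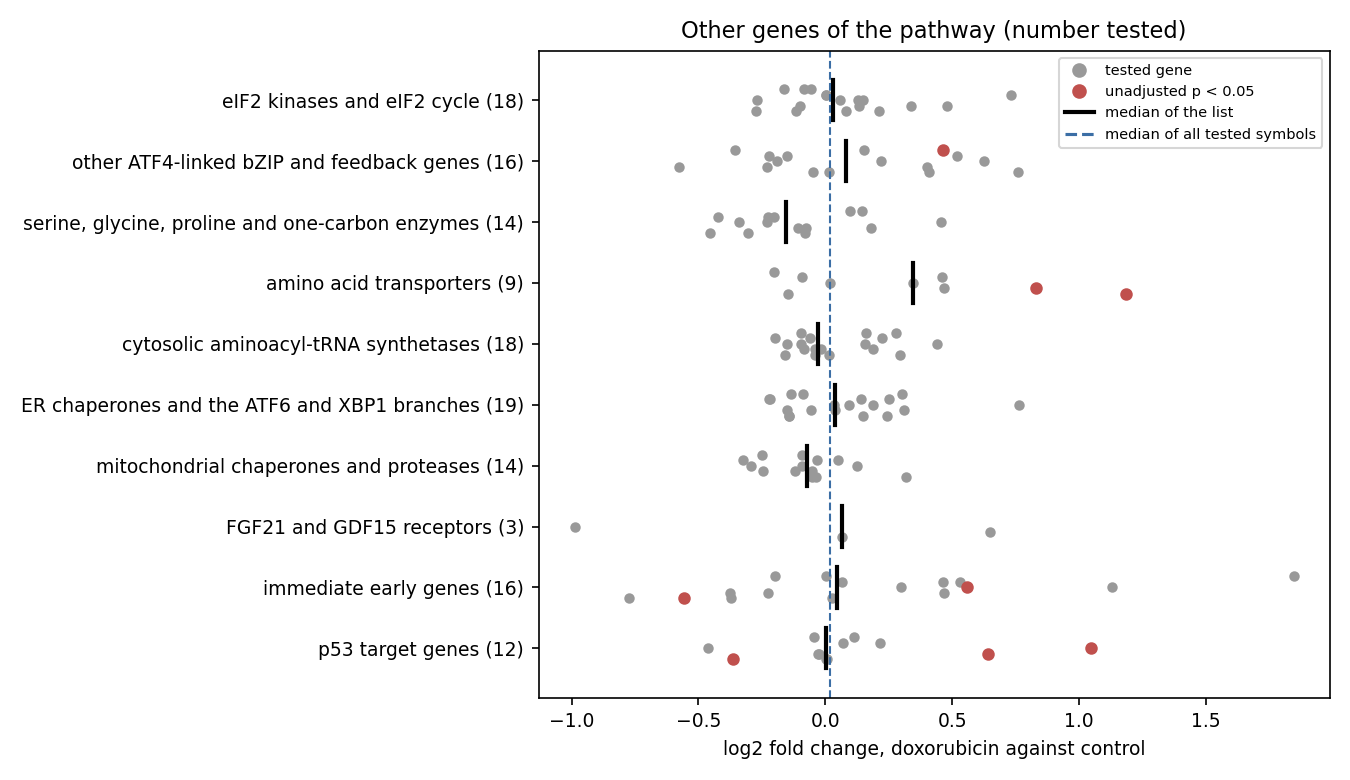
Log2 fold change of each tested gene in 10 pathway lists, with the number tested in brackets; red points have an unadjusted p under 0.05, black bars are list medians, and the dashed line is the median of all tested symbols, 0.02. The medians lie close to the dashed line except for the amino acid transporters, at 0.35, and the serine, glycine, proline and one-carbon enzymes, at -0.15.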

How the data were processed

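The deposited table holds raw read counts of 6 libraries, with features in rows. Per the submitters' processing notes, FastQC, Trimmomatic, STAR and HTSeq were used with the build mRatBN7.2; counting mode, strand and annotation are not given in the sources used here. Rows were summed per symbol (18473 rows, 17487 symbols). The test was edgeR 4.0.16 (R 4.3.3): quasi-likelihood F test of treatment, TMM, robust dispersion, filterByExpr (minimum count 10, minimum total 15), Benjamini-Hochberg adjustment over 9205 symbols, threshold 0.05. The SE is the absolute log2 fold change over the square root of F. Log2 CPM used a prior count of 2. Intervals at the 95% level for pooled ratios are exact intervals on counts pooled over the animals of each group. They cover counting error only and leave out the variation between animals. The reads lack molecular identifiers. A floor of 3 counts applies. Libraries held 2219685 to 3508282 counts.

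Alternatives used limma 3.58.1 and DESeq2 1.42.0. The scripts were tested on simulated data. The members and lists were chosen with earlier results of these data known. Besides the members, each list's genes past the threshold, or otherwise its 3 smallest p-values, were to be named; other named genes were chosen for their role or after their values were seen. Older symbols (Aars, Cars, Dars, Eprs, Kars) were matched through RefSeq synonyms. Same-numbered libraries are different animals, and their deviations did not correlate (Pearson's r -0.19 to 0.02 over 3 pairs).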

Additional observations from a re-analysis of the deposited data

How the results depend on the processing

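Among the 10 genes, 0 passed the adjusted threshold under every other scaling, filter, tool and dispersion setting tried, and on leaving out each library with the filter. Without the filter, leaving out each library in turn (chosen after the values were seen) gave 0 to 1. The exception was Atf3 without doxorubicin library 2, with a log2 fold change of 3.37 (SE 0.31), where the unfiltered fit on all 6 libraries had SE 1.31. Its remaining doxorubicin libraries had 467 and 42 counts, a spread that the smaller SE does not reflect. In that fit 237 of 12846 symbols passed, against 61 of 13050 in the unfiltered fit on all 6 libraries. Among the 237 were 2 listed genes, Nr4a1 and Nr4a3 (0 to 2 listed genes over these fits, 0 with the filter). The cause was not tested. Genes whose groups did not overlap numbered 3 with each scaling, and 3 to 5 when a library was left out. The 5 came without control library 2, which added Trib3 and Fgf21. Groups separate more easily with fewer libraries. The share of all symbols was not computed for these settings, so no gain can be read from the 5. The Atf3 log2 fold change ranged from 0.84 to 3.41, lowest without doxorubicin library 1. On leaving out each library Atf4 ranged from -0.064 (without doxorubicin library 2) to 0.067, with -0.043 without control library 3 (-0.071 and -0.037 without the filter), and Atf5 from -0.377 to 0.0027, the latter without control library 1 (0.0090 without the filter). Without the filter and on leaving out each library, Asns ranged from 0.81 to 1.22, Fgf21 from 2.33 to 5.03, Ddit3 from -0.66 to 0.75, Psat1 from -0.94 to 0.64 and Chac1 from -1.44 to 3.51, and Trib3 with the filter from 0.26 (without control library 3) to 1.01 (without control library 2). Gdf15 without the filter ranged from 1.54 to 2.40 on leaving out each library, with adjusted p 0.116 to 0.738.

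Over all symbols, against 5 past the threshold, library size only gave 0, no filter 61, DESeq2 74, limma voom 0, non-robust dispersion 1 and the replicate block 13, with 0 of the 10 genes under the block. Leaving out 1 library gave 0 to 35, and without the filter 37, 177 and 50 (control 1, 2 and 3) and 42, 237 and 48 (doxorubicin 1, 2 and 3). At these counts only large differences in Ddit3, Asns, Chac1, Psat1, Fgf21 and Gdf15 can be seen.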
